A study of Homo sapiens with 32 samples.

Results

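The autophagy receptors and the ATG8 genes form a set of 10 genes out of the 60107 gene rows of the count table. The 5 receptors are SQSTM1 (ENSG00000161011), NBR1 (ENSG00000188554), OPTN (ENSG00000123240), TAX1BP1 (ENSG00000106052) and CALCOCO2 (ENSG00000136436). The 5 ATG8 genes are MAP1LC3A (ENSG00000101460), MAP1LC3B (ENSG00000140941), GABARAP (ENSG00000170296), GABARAPL1 (ENSG00000139112) and GABARAPL2 (ENSG00000034713). Genes entered the set by family, and the family was chosen with earlier results of these counts known, so the shares of members called below are not independent of the data. The grouping of libraries 1 to 17, described further on, also used measured values.

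RNA from U2OS cells, a human osteosarcoma line, and HEK293T cells, a human embryonic kidney line that carries the SV40 large T antigen, was counted from transcript 3′ ends in 32 libraries. The study asked whether poisoning topoisomerase 1 or losing the checkpoint kinase ATM makes proteins aggregate, and RNA was measured to set transcript levels beside the aggregated proteins. Camptothecin (CPT), a poison of topoisomerase 1, was given for 24 h at 400 nM to U2OS or 100 nM to HEK293T, and cells then recovered for 48 h without drug; vehicle was DMSO. The ATM inhibitor was Ku-55933 at 9 µM with the same schedule, and untreated U2OS wild-type and ATM knockout (KO) cells were grown for 72 h, where the KO cells came from picked CRISPR/Cas9 clones.

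Labels and contents did not match for every library. Libraries 26 to 29 (labelled U2OS, CPT) and 30 to 33 (labelled U2OS, DMSO) had U2OS profiles, and libraries 18 to 21 and 22 to 25 (labelled HEK293T, the latter DMSO) had HEK293T profiles. Libraries 18 to 21 carry the label ATM KO, whereas the study describes an ATM inhibitor for HEK293T RNA, so they are called the libraries labelled HEK293T ATM KO. Libraries 10, 12, 14 and 16 are labelled U2OS ATM KO, libraries 11, 13 and 15 U2OS wild-type and library 17 HEK293T DMSO. In these 8 libraries the summed level of 8 U2OS marker genes was 42.0 to 102 CPM (counts per 1000000 counts on genes) and that of 8 HEK293T marker genes 1173 to 1702 CPM. Conversely, libraries 2, 4, 6 and 8 are labelled HEK293T CPT, libraries 3, 5 and 7 HEK293T DMSO and library 1 U2OS wild-type. In these libraries the U2OS marker sum was 653 to 1122 CPM and the HEK293T marker sum 129 to 213 CPM. Library 1 (752 CPM of U2OS and 129 CPM of HEK293T markers) and library 17 (49.0 and 1490 CPM) did match the cell line of their labels. In the 16 libraries 18 to 33, the U2OS marker sum spanned 570 to 1519 CPM under U2OS labels, against 50.8 to 99.0 CPM under HEK293T labels. CD44 and TGFBI were among the U2OS markers that separated the lines, and CKB and NEFM among those of HEK293T. SALL4, also listed for HEK293T, went the other way. In libraries 18 to 33 it was at 7.36 to 16.7 CPM under U2OS labels and 0 to 1.48 CPM under HEK293T labels. Of the others listed for HEK293T, CDH7 was at most 1.22 CPM in any library, and PAX2 overlapped between libraries 1 to 8 and 10 to 17. Libraries 10 to 17 were therefore treated as one HEK293T-like set and libraries 1 to 8 as one U2OS-like set. This grouping was chosen by the profiles of the same counts, so cell line differences among libraries 1 to 17 are described without a test. Within each set the even-numbered libraries are all labelled as drug-treated or KO and the odd-numbered ones as controls, and this split was taken from the labels alone. Results are given as even against odd libraries, and nothing is said of the direction of a treatment or knockout. ATM itself did not settle the matter: it was at 34.2 to 61.7 CPM in the even and 53.4 to 68.4 CPM in the odd U2OS-like libraries (log2 fold change −0.31 ± 0.17 (SE), adjusted p = 0.255), and at 28.8 to 39.8 CPM in the even HEK293T-like libraries, which carry the U2OS ATM KO label, against 21.2 to 36.3 CPM in the odd ones (0.22 ± 0.16, adjusted p = 0.305). A 3′ tag can lie outside an edited part of the gene. Counts on genes per library ranged from 1232674 to 6362433.

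Selective autophagy removes protein aggregates, damaged organelles and bacteria. Receptors bind ubiquitin or a cargo on one side and ATG8 proteins on the other, and so tie the cargo to the growing autophagosome membrane. ATG8 proteins (the LC3 and GABARAP subfamilies) are cleaved, conjugated to phosphatidylethanolamine and held in that membrane, where they also help it to fuse with lysosomes. Receptors are degraded together with their cargo and are replaced by new synthesis.

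Promoter sequence was read for the members from the RefSeq table of GRCh38.p14, in which 9 members had 14 windows; MAP1LC3A was not matched. Each window holds the 250 bases before a gene start. The 3 windows below are shown because OPTN was the one member called in U2OS CPT and in both sets of libraries 1 to 17, GABARAPL1 held its call in the U2OS CPT comparison under each scaling, and MAP1LC3B had the largest change of the ATG8 genes in the HEK293T-like set. They are written 5′ to 3′ on the gene's strand, with motif matches in capitals.
OPTN, chr10:13099832-13100081, plus strand: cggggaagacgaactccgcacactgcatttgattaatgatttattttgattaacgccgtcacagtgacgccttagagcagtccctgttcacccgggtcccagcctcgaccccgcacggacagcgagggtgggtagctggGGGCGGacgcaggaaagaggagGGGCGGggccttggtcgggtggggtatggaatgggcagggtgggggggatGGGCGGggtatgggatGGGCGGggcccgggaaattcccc
GABARAPL1, chr12:10212627-10212876, plus strand: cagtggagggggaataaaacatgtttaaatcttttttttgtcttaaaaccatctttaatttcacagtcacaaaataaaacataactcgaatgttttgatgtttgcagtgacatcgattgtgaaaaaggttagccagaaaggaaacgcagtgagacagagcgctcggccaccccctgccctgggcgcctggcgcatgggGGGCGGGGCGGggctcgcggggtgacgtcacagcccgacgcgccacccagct
MAP1LC3B, chr16:87392086-87392335, plus strand: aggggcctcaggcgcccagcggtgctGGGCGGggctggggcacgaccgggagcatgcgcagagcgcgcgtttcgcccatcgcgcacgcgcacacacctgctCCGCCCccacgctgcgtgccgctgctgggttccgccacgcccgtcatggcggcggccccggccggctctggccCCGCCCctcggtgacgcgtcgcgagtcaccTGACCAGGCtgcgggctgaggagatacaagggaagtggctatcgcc
Both strands were searched for the GC box (GGGCGG), the CCAAT box (CCAAT), the E-box core (CACGTG), the antioxidant response element core (TGACNNNGC), an AP-1 site (TGANTCA) and a p53 response element made of 2 half-sites. The GC box and the CCAAT box were added, and the bases after the gene start dropped, after the other motifs had given few matches in the members. The capitals in OPTN and GABARAPL1 are GC boxes, 4 in OPTN and 2 overlapping by a base in GABARAPL1. MAP1LC3B has 3 GC boxes and, at position −46, an antioxidant response element core, TGACCAGGC; CALCOCO2 holds the second such core among the members, at −129. A GC box was in 13 of the 14 member windows and in 42.6% of all 35114 windows of the table. The member windows are not independent, since those of OPTN overlap and SQSTM1 has 3. The number of C letters followed by G had a median of 11 over all windows. In member windows it ran from 1 (a TAX1BP1 window) to 33 (MAP1LC3B), with 15 in GABARAPL1 and 18 in the OPTN window shown. Its part in the GC box share was not tested. The antioxidant core was in 2 of the 14 and in 10.9% of all windows. A CCAAT box was in 1 of the 14, a window of NBR1, and in 32% of all windows. No member window held the E-box core (6.35% of all windows), the AP-1 letters (6.57%) or the p53 element (0.0256%). These matches describe the letters of short windows and say nothing about the binding of a factor.

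**Figure D1:**
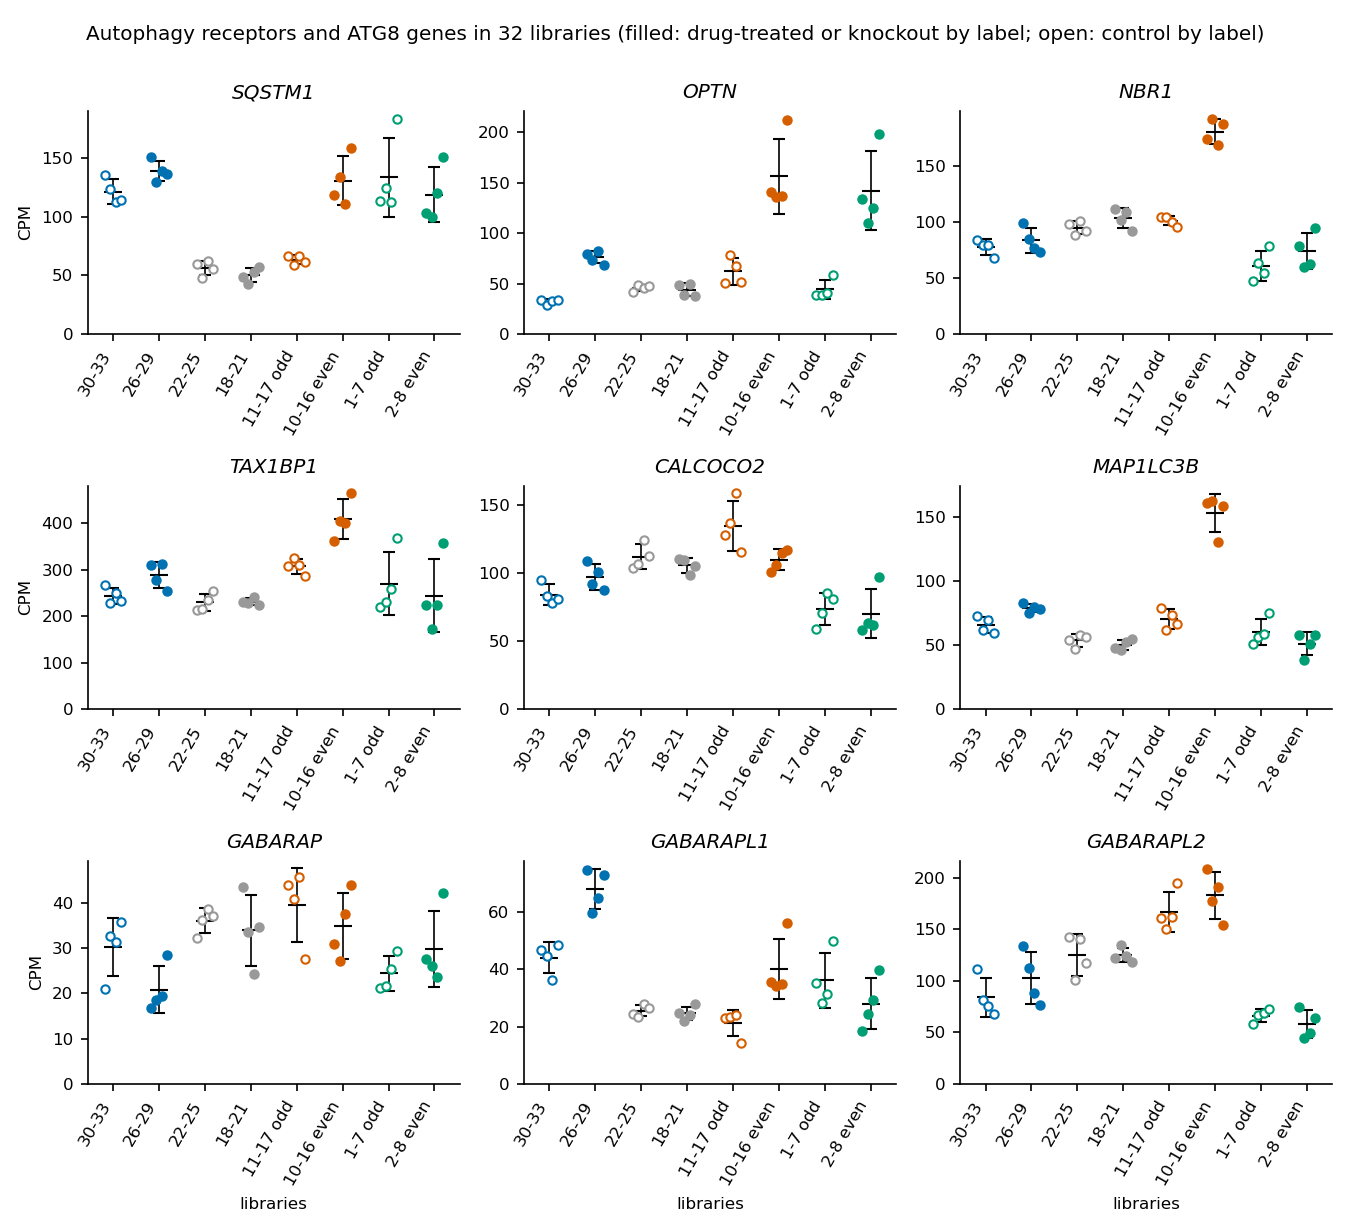
CPM (vertical axes, from 0) for 9 members in each of the 32 libraries, in 8 groups of 4; filled points are libraries labelled drug-treated or KO, open points controls, bars the mean ± SD. OPTN was higher in each filled group than in its control except in libraries 18 to 21, whereas GABARAP, CALCOCO2 and GABARAPL2 overlapped in every pair.

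Expression of the members was first read in U2OS cells after CPT. OPTN, a receptor for ubiquitin-coated mitochondria, bacteria and aggregates, rose most. Its level was 79.7, 73.5, 82.1 and 68.6 CPM in CPT libraries 26 to 29 and 33.7, 28.9, 32.5 and 33.6 CPM in DMSO libraries 30 to 33. Each CPT library was above each DMSO library, and the log2 fold change was 1.40 ± 0.13 (SE, n = 4 per group; edgeR quasi-likelihood test, adjusted p = 1.72e-10). GABARAPL1, an ATG8 gene of the GABARAP subfamily, rose as well. It was at 74.4, 59.6, 64.8 and 72.7 CPM with CPT and at 46.6, 44.7, 36.3 and 48.5 CPM with DMSO, again without overlap (log2 fold change 0.79 ± 0.13, adjusted p = 9.5e-06).

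The other 5 calls were small. MAP1LC3B, which encodes the LC3 protein most used as an autophagosome marker, was at 75.4 to 83.0 CPM with CPT and 59.8 to 72.6 CPM with DMSO, a log2 fold change of 0.43 ± 0.11 (adjusted p = 0.0036). SQSTM1, which encodes p62, a receptor that gathers ubiquitinated proteins into condensates, was at 129 to 150 CPM against 113 to 135 CPM, so its groups overlapped (0.37 ± 0.11, adjusted p = 0.00805). TAX1BP1 and CALCOCO2, a pair of related receptors for bacteria and aggregates, had log2 fold changes of 0.41 ± 0.11 and 0.38 ± 0.11. GABARAPL2 had 0.48 ± 0.15, with libraries spread over 76.7 to 133 CPM in CPT and 67.5 to 111 CPM in DMSO. NBR1, a large receptor that works with p62, did not pass (0.28 ± 0.12, adjusted p = 0.0733). GABARAP had the only negative value, −0.38 ± 0.18 (adjusted p = 0.106), at 16.8 to 28.4 CPM with CPT and 21 to 35.8 CPM with DMSO.

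By count, 7 of the 9 members tested were called higher and 0 lower, where 16.6% of the 19080 genes tested were called higher and 15.3% lower. Here and in the comparisons below, the genes tested include ones with few counts, in which a change is harder to call. The 9 members had 56 or more counts in each of these libraries, and no share over genes with like counts is given. The median log2 fold change was 0.41 over the 9 members and 0.01 over all genes. Only OPTN also passed an absolute log2 fold change of 1, as did 13.5% of all genes tested. The 5 small calls depended on scaling. edgeR's trimmed mean of M values (TMM) added 0.17 on the log2 scale to each fold change in this comparison; with counts scaled on the sum over genes alone, the median of all genes moved to −0.16. Under that scaling OPTN (1.24) and GABARAPL1 (0.62) stayed higher, the adjusted p of SQSTM1, TAX1BP1, CALCOCO2, MAP1LC3B and GABARAPL2 rose to between 0.0916 and 0.205, and GABARAP was called lower (−0.54, adjusted p = 0.0163). Over all genes 12% were then called higher and 22.3% lower, and the share of calls that were higher went from 52.1% to 34.9%. GABARAPL2 lost its call without library 26 (0.33, adjusted p = 0.0918) or without library 27 (0.42, adjusted p = 0.0532). GABARAP was called lower without library 29 (−0.57) or without library 30 (−0.56), and NBR1 was called higher without library 29 (0.34). The summed U2OS markers moved in the same comparison, from 570 to 618 CPM with DMSO to 1383 to 1519 CPM with CPT, with each of the 8 markers above 0 in every library; their part in the members' values was not tested. In bulk RNA such as this, fewer cells with a transcript and less of it per cell cannot be told apart.

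**Figure D2:**
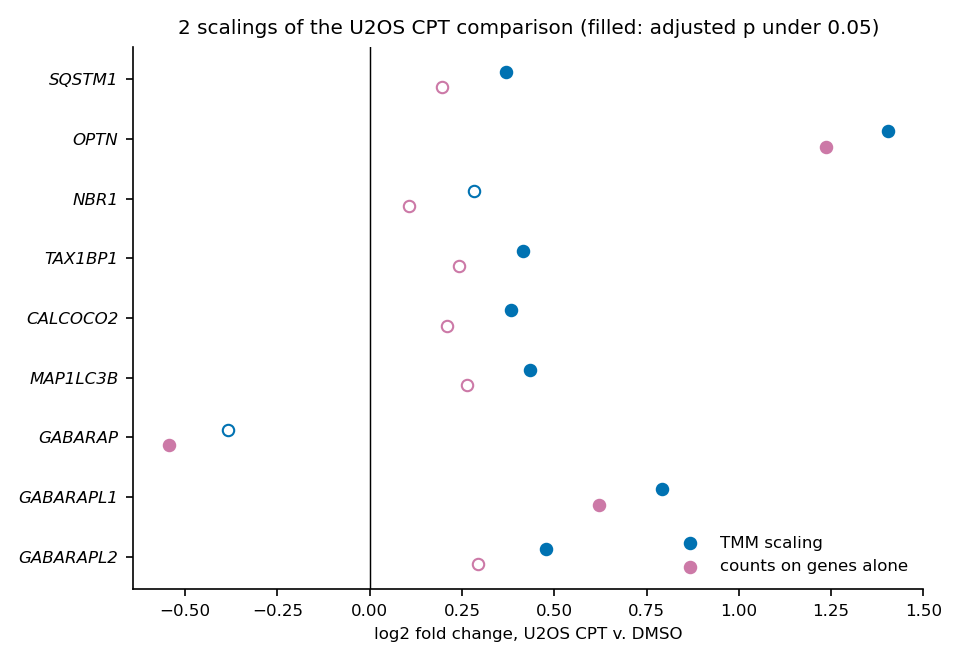
Log2 fold change (horizontal axis) of the 9 members for U2OS CPT against DMSO, fitted with TMM and with counts scaled on genes alone; filled points had an adjusted p under 0.05. Each member sits lower without TMM, and OPTN and GABARAPL1 are the members called higher under both.

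No member was called in HEK293T libraries 18 to 21, labelled ATM KO, against the DMSO libraries 22 to 25. OPTN was at 48.6, 39.2, 49.8 and 37.3 CPM in the former and 41.6, 48.6, 45.8 and 47.7 CPM in the latter, and the groups overlapped. SQSTM1 was at 48.8, 42.8, 52.7 and 56.9 CPM against 59.5, 48.0, 61.9 and 55.4 CPM. The lowest log2 fold change of the 9 members was −0.10 (SQSTM1) and the highest 0.19 (NBR1). Their 95% intervals reached no further than −0.33 (SQSTM1) and 0.40 (NBR1). None passed at an adjusted p under 0.05 (smallest 0.908), and before adjustment 0 were under 0.05; DESeq2 also called 0. Over all 18413 genes tested, 0% were called higher and 0.00543%, or 1 gene, lower. Before adjustment 1019 were under 0.05, a threshold that about 1 in 20 genes without any change would pass. ATM was at 54.5 to 74.1 CPM in libraries 18 to 21 and 57.8 to 82.0 CPM in the DMSO libraries.

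In the HEK293T-like libraries 7 members were called. OPTN was at 141, 135, 137 and 212 CPM in even-numbered libraries 10, 12, 14 and 16 and at 51.0, 78.4, 67.6 and 51.9 CPM in odd-numbered libraries 11, 13, 15 and 17. The groups did not overlap (log2 fold change 1.30 ± 0.16, adjusted p = 1.43e-06), although library 16 stood well above the other even ones. MAP1LC3B was at 161, 162, 131 and 159 CPM against 79.2, 61.4, 73.8 and 66.5 CPM (1.10 ± 0.12, adjusted p = 1.78e-07). SQSTM1 was at 119, 134, 111 and 159 CPM against 66.5, 59.1, 66.2 and 61.2 CPM (1.03 ± 0.12). Those 3 genes were the members called past an absolute log2 fold change of 1, where 14% of all genes were.

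NBR1 was at 173, 192, 168 and 187 CPM in the even libraries and 104, 104, 99.5 and 95.5 CPM in the odd ones, which is a log2 fold change of 0.81 ± 0.11. GABARAPL1 was at 35.5, 34.3, 34.9 and 56.0 CPM against 23.1, 23.4, 24.2 and 14.4 CPM (0.90 ± 0.18, adjusted p = 0.000498). Its even libraries were again led by library 16, and library 17 was the lowest of the odd ones. TAX1BP1 moved less, from 285 to 325 CPM to 362 to 466 CPM (0.38 ± 0.11), without overlap. CALCOCO2 went the other way: it was at 101 to 117 CPM in the even and 115 to 159 CPM in the odd libraries, and its log2 fold change of −0.32 ± 0.12 was near the threshold (adjusted p = 0.0392; 0.0864 with DESeq2). GABARAPL2 (0.11 ± 0.12) and GABARAP (−0.19 ± 0.17) did not pass.

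Thus 6 of the 9 members were called higher in the even libraries and 1 lower, where 17.6% and 17.3% of 19464 genes were called higher and lower. The members' median log2 fold change was 0.81, and that of all genes 0.04. The CALCOCO2 call was also lost with RLE scaling (adjusted p = 0.0705), with counts scaled on genes alone (0.057), with the filterByExpr filter (0.0869) and without any one of libraries 10 to 15 (adjusted p from 0.057 to 0.148). Grouped by label alone, with libraries 10, 12, 14 and 16 against the 4 libraries labelled U2OS wild-type, 3 members were called, where 3.98% of all genes were called either way; among those lost were SQSTM1 (0.65, adjusted p = 0.208) and GABARAPL1 (0.51, adjusted p = 0.291). Reads not assigned to a gene, which the table holds in 5 summary rows, made up 17 to 19.8% of the even and 10.9 to 12.4% of the odd libraries; their part in these values was not tested.

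In the U2OS-like libraries 1 to 8, OPTN was the one member called; without library 8 GABARAPL1 was called as well. OPTN was at 134, 110, 125 and 198 CPM in even-numbered libraries 2, 4, 6 and 8 and at 38.8, 38.5, 41.1 and 58.6 CPM in odd-numbered libraries 1, 3, 5 and 7. Libraries 7 and 8 were the highest of their groups, and the groups lay far apart (log2 fold change 1.64 ± 0.16, adjusted p = 1.49e-11). By chi-square over all genes, library 8 also differed more from libraries 2, 4 and 6 than those did among themselves. The same held for library 7 against libraries 1, 3 and 5. With libraries 7 and 8 left out, an alternative chosen after seeing these values, the log2 fold change was 1.6.

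SQSTM1 was at 103, 99.6, 120 and 151 CPM in the even and 114, 125, 113 and 183 CPM in the odd libraries, so library 7 alone exceeded every even library (−0.20 ± 0.15). MAP1LC3B (−0.28 ± 0.16), GABARAPL1 (−0.34 ± 0.18) and GABARAPL2 (−0.26 ± 0.16) had negative values that did not pass, and NBR1 (0.23 ± 0.16) and GABARAP (0.25 ± 0.18) positive ones. Without library 8, the GABARAPL1 value passed as lower (−0.52, adjusted p = 0.0411). Across the 9 members 1 was called higher and 0 lower, against 6.43% and 6.56% of 18591 genes; OPTN also passed an absolute log2 fold change of 1, as did 5.24% of those genes. The median log2 fold change was −0.18 over the members and 0.04 over all genes. Libraries 1 and 2 had the fewest counts of the series, 1416967 and 1232674; without both, OPTN had a log2 fold change of 1.64 and was again the member called.

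**Figure D3:**
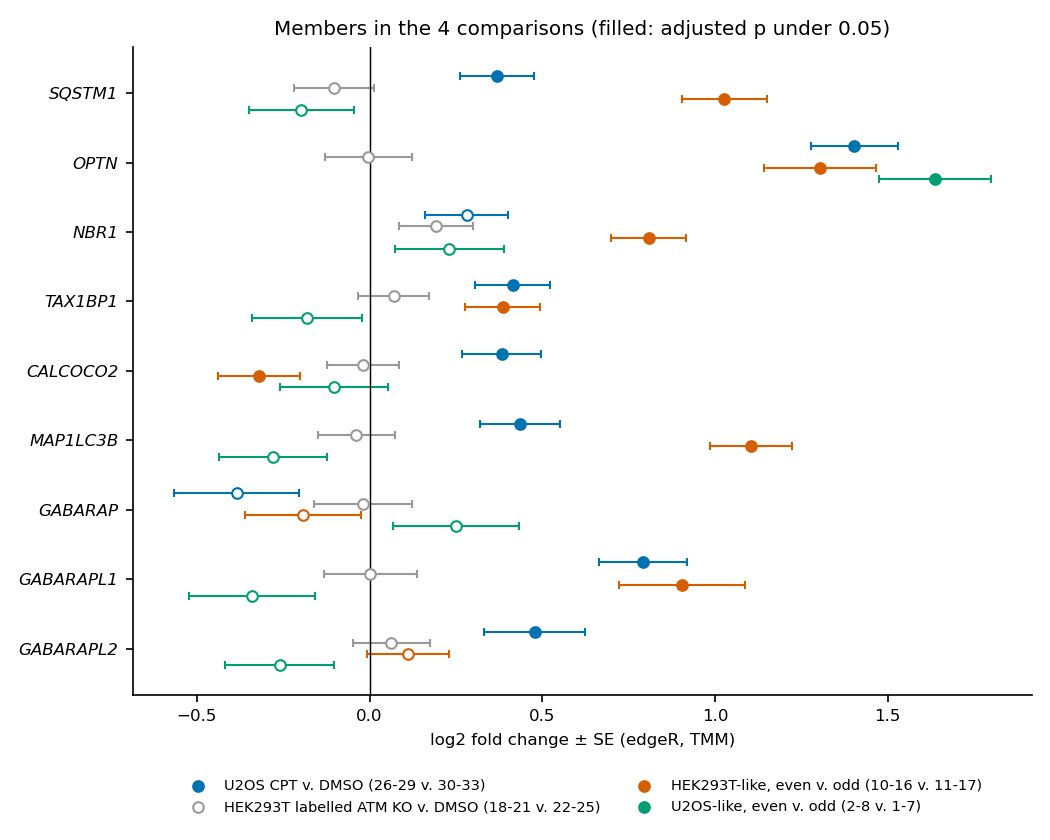
Log2 fold change ± SE (horizontal axis; edgeR with TMM) of the 9 members in the 4 comparisons; filled points had an adjusted p under 0.05. OPTN lies between 1.30 and 1.64 in 3 comparisons, and all 9 members lie near 0 in HEK293T libraries 18 to 25.

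MAP1LC3A, which encodes another LC3 protein, could not be compared. It had 1 count in library 12 and 0 counts in each of the other libraries, where 0 counts allow up to between 0.472 and 2.43 CPM for counting error. It passed the filter on low counts in no comparison, so 9 of the 10 members were tested. Near copies of members were as low: MAP1LC3B2, MAP1LC3C and GABARAPL3 had at most 2 counts in any library, and MAP1LC3BP1, MAP1LC3P and SQSTM1P1, pseudogenes of members, had 0. SQSTM1 shares exon sequence on the opposite strand with MGAT4B, which was at 112 to 303 CPM, and OPTN with CCDC3, at 3.14 to 33.3 CPM. The library kit keeps strand, but the strand setting of the counting is not given in the sources used here.

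Differences between the cell lines before damage were tested between U2OS DMSO libraries 30 to 33 and HEK293T DMSO libraries 22 to 25, the control libraries already used above. SQSTM1 was higher in U2OS, at 135, 123, 113 and 114 CPM against 59.5, 48.0, 61.9 and 55.4 CPM (log2 fold change 1.33 ± 0.11, adjusted p = 2.91e-12). GABARAPL1 was higher too, at 46.6, 44.7, 36.3 and 48.5 CPM against 24.5, 23.4, 27.8 and 26.4 CPM (1.01 ± 0.14). MAP1LC3B (0.52 ± 0.12) and TAX1BP1 (0.31 ± 0.11) passed with smaller values, and GABARAPL2 was lower in U2OS (−0.36 ± 0.13). OPTN was at 28.9 to 33.7 CPM in U2OS and 41.6 to 48.6 CPM in HEK293T, with −0.28 ± 0.13 and an adjusted p of 0.0579.

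In all, 4 members were called higher and 1 lower in U2OS, where 32% and 30.1% of 19739 genes were called. SQSTM1 and GABARAPL1 were past an absolute log2 fold change of 1, as were 39.9% of those genes. TMM added 0.22 on the log2 scale here. With counts scaled on genes alone, OPTN (−0.51), CALCOCO2 (−0.41) and NBR1 (−0.29) were also called lower in U2OS, TAX1BP1 was not called (0.09; also not with all 32 libraries in 1 fit, 0.30, adjusted p = 0.0501), and the median of all genes was −0.21, with 26.5% of them called higher and 36.7% lower. GABARAPL2 lost its call without library 22 (−0.30) or library 24 (−0.32), and OPTN was called lower without library 22 (−0.33) or library 33 (−0.33).

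Set side by side, the levels of OPTN had an order of their own. Mean CPM was lowest in U2OS DMSO (32.2 ± 2.25 SD), then at 43.7 ± 6.38 in the libraries labelled HEK293T ATM KO, 44.3 ± 9.65 in the odd U2OS-like libraries and 45.9 ± 3.11 in HEK293T DMSO, and those 3 overlapped. The odd HEK293T-like libraries (62.2 ± 13.2) overlapped library 7 of the odd U2OS-like ones and U2OS CPT (76.0 ± 6.09). The even U2OS-like (142 ± 39.0) and even HEK293T-like libraries (156 ± 37.3) were highest and overlapped each other, and each of them was above every other library of the series. NBR1 and MAP1LC3B were highest in the even HEK293T-like libraries, at 168 to 192 CPM and 131 to 162 CPM, with no overlap with any of the other 7 groups. GABARAPL1 was highest in U2OS CPT, at 59.6 to 74.4 CPM, above every library of the other groups. This order is a description, since libraries 1 to 17 were grouped from the same counts and CPM was not scaled by TMM. With TMM, the lower OPTN of U2OS DMSO against HEK293T DMSO was −0.28 on the log2 scale and was not called.

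Whether the U2OS CPT change differed from that in the other sets was tested directly, in fits that hold both, and the differences are signed. Against the even minus odd change of libraries 10 to 17, the CPT change was larger for CALCOCO2 by 0.70 ± 0.17 (adjusted p = 0.00167). CALCOCO2 had changes of opposite sign, 0.38 in U2OS CPT and −0.32 in libraries 10 to 17. The CPT change was smaller for MAP1LC3B (−0.66 ± 0.17), SQSTM1 (−0.66 ± 0.17) and NBR1 (−0.52 ± 0.17, adjusted p = 0.0201). The difference for OPTN was 0.09 with a 95% interval from −0.33 to 0.52. Calls numbered 1 higher and 3 lower of 9 members, against 9.86% and 10.5% of 22363 genes, and none passed an absolute log2 fold change of 1, against 11.9% of all genes. The same 4 members were called under each scaling; on genes alone 6.56% of all genes were called higher and 14.8% lower. NBR1 lost its call without library 28 (adjusted p = 0.0515) or library 29 (adjusted p = 0.0575).

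Against the change of the U2OS-like libraries 1 to 8, the CPT change was larger for GABARAPL1 by 1.12 ± 0.23 (adjusted p = 0.000164). It was also larger for GABARAPL2 (0.74 ± 0.22), MAP1LC3B (0.72 ± 0.20), TAX1BP1 (0.59 ± 0.21) and SQSTM1 (0.56 ± 0.19). Each of these 5 had a negative change in libraries 1 to 8, from −0.34 (GABARAPL1) to −0.18 (TAX1BP1), that was not called. The difference for OPTN did not pass, at −0.23 with a 95% interval from −0.65 to 0.18. The 5 calls were all higher, where 9% of 20539 genes were called higher and 8.69% lower. GABARAPL1 was past an absolute log2 fold change of 1, as were 10.8% of those genes. Scaled on genes alone, GABARAPL1 (0.92) was the one still called higher and GABARAP was called lower (−0.83), where 5.87% of all genes were called higher and 12.8% lower, and over all genes the share of calls that were higher went from 50.9% to 31.4%; in the former difference it went from 48.5% to 30.7%. The SQSTM1 call was lost without any one of libraries 2, 4, 7, 26, 31 and 32 (adjusted p from 0.0517 to 0.11), and the TAX1BP1 call without any one of libraries 2, 4, 6, 7, 26, 28 and 31 (0.0597 to 0.104). The GABARAPL2 call was lost without library 26 (adjusted p = 0.057). CALCOCO2 was called larger with DESeq2 (0.51, adjusted p = 0.0423), with the filterByExpr filter of edgeR (0.50, adjusted p = 0.0356) and without library 8 (0.66), and GABARAP was called smaller without library 6 (−0.76), 29 (−0.81) or 30 (−0.79).

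**Figure D4:**
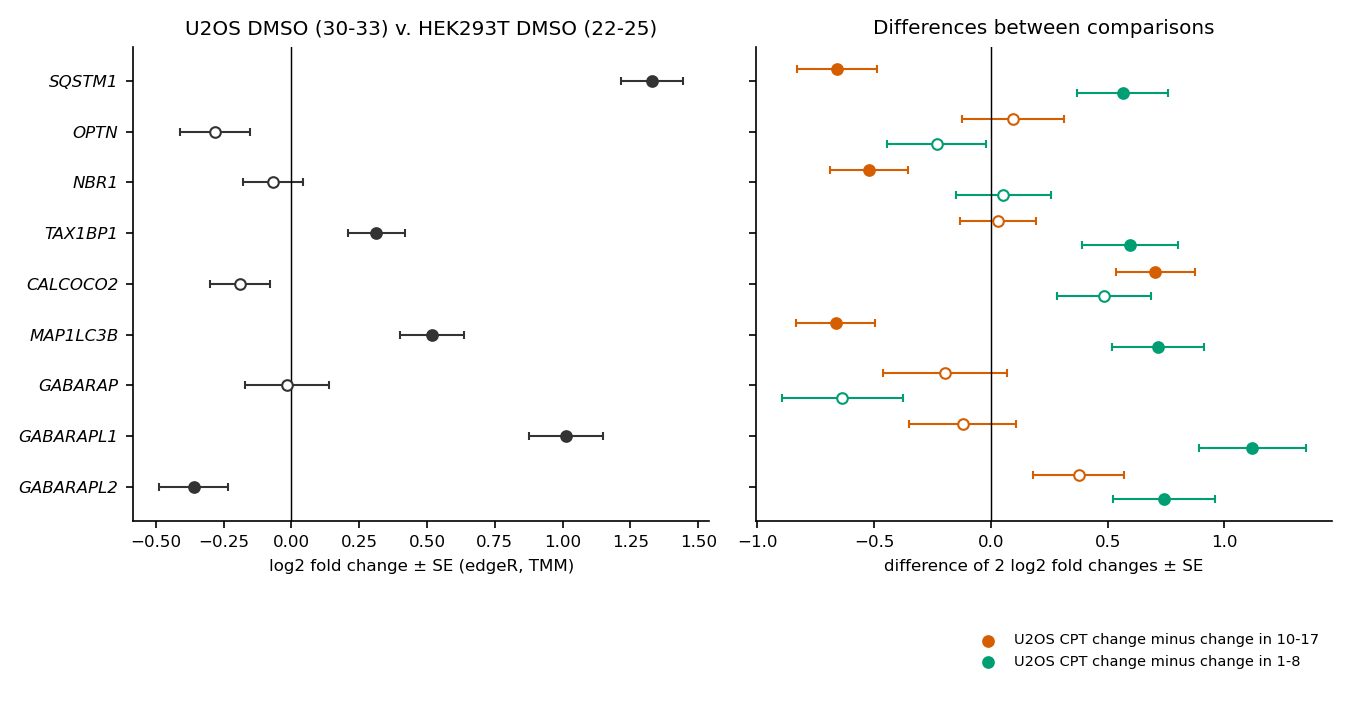
Left, log2 fold change ± SE of U2OS DMSO against HEK293T DMSO; right, the U2OS CPT log2 fold change minus that of libraries 10 to 17 or 1 to 8, ± SE; filled points had an adjusted p under 0.05. SQSTM1 and GABARAPL1 lie above 1 on the left, and OPTN is drawn open in both differences on the right.

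Other genes of the pathway were read from lists by step, 79 genes in all, of which 75 were tested in U2OS CPT. There 21 of the 75 were called higher and 8 lower, where 16.6% and 15.3% of all genes were called higher and lower; the median log2 fold change was 0.12 against 0.01 over all genes. Of the 14 genes of fusion with lysosomes, 6 were higher and 0 lower. VAMP8, a SNARE of autophagosome fusion, was at 11.2 to 14.1 CPM with CPT and 1.72 to 3.22 CPM with DMSO (log2 fold change 2.52 ± 0.26). PLEKHM1 (1.80 ± 0.20) and EPG5 (1.74 ± 0.14), adaptors that tether autophagosomes to lysosomes, also rose. Of 14 regulators, 4 rose and 2 fell. DRAM1, a lysosomal membrane protein gene that p53 activates, had 1.78 ± 0.15, TP53INP1, another p53 target whose product binds ATG8 proteins, 1.70 ± 0.16, and MITF, a transcription factor of lysosomal genes, 1.5 ± 0.19. PRKAA2, a catalytic subunit of AMP kinase, fell by 0.66 on the log2 scale and KEAP1, the adaptor that holds NRF2 down, by 0.56. TFEB, related to MITF, was at 0.936 to 2.06 CPM with CPT and 2.06 to 3.22 CPM with DMSO and did not pass (adjusted p = 0.131).

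Of the 11 genes of ATG8 conjugation and cleavage 3 rose and 2 fell, against the 16.6% and 15.3% of all genes. ATG16L2 rose by 1.51 ± 0.20, while ATG10, the E2-like enzyme for ATG12, fell by 0.80 and ATG4C, an ATG8 protease, by 0.45. ATG7, the E1-like enzyme, did not pass (−0.08, adjusted p = 0.821). Among 7 genes of membrane supply, 2 rose, led by WIPI1, which binds PI3P on early autophagosomes (1.03 ± 0.13). Of the 13 genes of initiation 1 rose and 1 fell, the latter PIK3R4 (−0.38 ± 0.13), and ULK1, the starting kinase, did not pass (0.08, adjusted p = 0.738). Of 16 other cargo receptors and adaptors 5 rose and 3 fell, with a median of −0.04. No list is read as apart from all genes. CALCOCO1, a receptor for the ER and Golgi related to CALCOCO2, rose by 1.26 ± 0.18, and CCPG1, an ER receptor, by 0.72 ± 0.15. RTN3 fell by 0.50, BNIP3L by 0.47 and PHB2 by 0.42. Scaled on genes alone, 13 pathway genes were called higher and 9 lower, where 12% and 22.3% of all genes were called; DRAM1, TP53INP1, VAMP8, EPG5, PLEKHM1, WIPI1, ATG16L2 and CALCOCO1 were called higher under that scaling too.

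In HEK293T libraries 18 to 25, 0 of 76 pathway genes tested were called, and 4 were under 0.05 before adjustment. The lowest log2 fold change among them was −0.27 and the highest 1.06.

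In the HEK293T-like set, 24 of 75 pathway genes were higher in even libraries and 8 lower, where 17.6% and 17.3% of all genes were called (median 0.13, all genes 0.04). Grouped by label, 7 pathway genes were called in place of 32, where 3.98% of all genes were called. Initiation stood at 6 of 13 higher and 0 lower. ULK1 was at 47.8 to 61.9 CPM in the even and 19.1 to 24.9 CPM in the odd libraries (1.17 ± 0.14), ATG14, a subunit of the lipid kinase complex, had 0.85 ± 0.15 and AMBRA1, a regulator of that complex, 0.71 ± 0.16. Of the regulators 6 were higher and 1 lower, led by TP53INP1 (2.53 ± 0.20) and its paralogue TP53INP2 (2.31 ± 0.25), with DRAM1 at 0.75 ± 0.20. WIPI1 and ATG2A, a lipid transfer protein gene, both had 1.03. ATG4A, which cleaves GABARAP proteins, had 1.02 ± 0.16. Of the 14 fusion genes 6 were higher and 2 lower. VPS18, EPG5 and SNAP29 had 1.19, 0.99 and 0.57. VAMP8, added after its value was seen, had 1.48 ± 0.39 (adjusted p = 0.00491). VPS16 (−0.65) and TECPR1 (−0.63) were lower. CALCOCO1 (0.74 ± 0.19) was higher and PHB2 (−1.01 ± 0.12) lower. ATG16L2, which rose in U2OS CPT, was called lower in the even libraries here (−1.01 ± 0.24, adjusted p = 0.00218).

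In the U2OS-like set, 4 of 75 pathway genes were higher in even libraries and 3 lower (median 0.09, all genes 0.04), where 6.43% and 6.56% of all genes were called; without library 8 the pathway calls were 6 higher and 5 lower, against 7.48% and 8.25% of all genes. WIPI1, called higher in U2OS CPT and in the HEK293T-like set, was called lower here (−0.66 ± 0.19, adjusted p = 0.0137). BNIP3, a mitophagy receptor, was at 22.6 to 24.3 CPM in the even and 6.49 to 12 CPM in the odd libraries (1.22 ± 0.21). BNIP3L, its paralogue, was at 155 to 197 CPM against 82.6 to 127 CPM (0.64 ± 0.15). TFE3, a transcription factor of lysosomal genes, had 0.43 ± 0.15 (adjusted p = 0.0424; 0.079 scaled on genes alone). The other genes called there, named after their values were seen, were VAMP8 (1.83 ± 0.34, adjusted p = 7.66e-05), which was higher, and SEC62 (−0.80 ± 0.16, adjusted p = 0.000167) and RTN3 (−0.62 ± 0.16, adjusted p = 0.00377), both ER receptors, which were lower. In U2OS DMSO against HEK293T DMSO, 31 pathway genes were higher and 19 lower of 75, where 32% and 30.1% of all genes were called. BNIP3 was the furthest apart, at 7.62 to 13.1 CPM in U2OS and 89.4 to 133 CPM in HEK293T (−3.20 ± 0.16). ATG4A (−2.43 ± 0.28) and ATG16L2 (−1.86 ± 0.23) were lower in U2OS, and WIPI1 (1.93 ± 0.19) and DRAM1 (1.88 ± 0.21) higher.

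**Figure D5:**
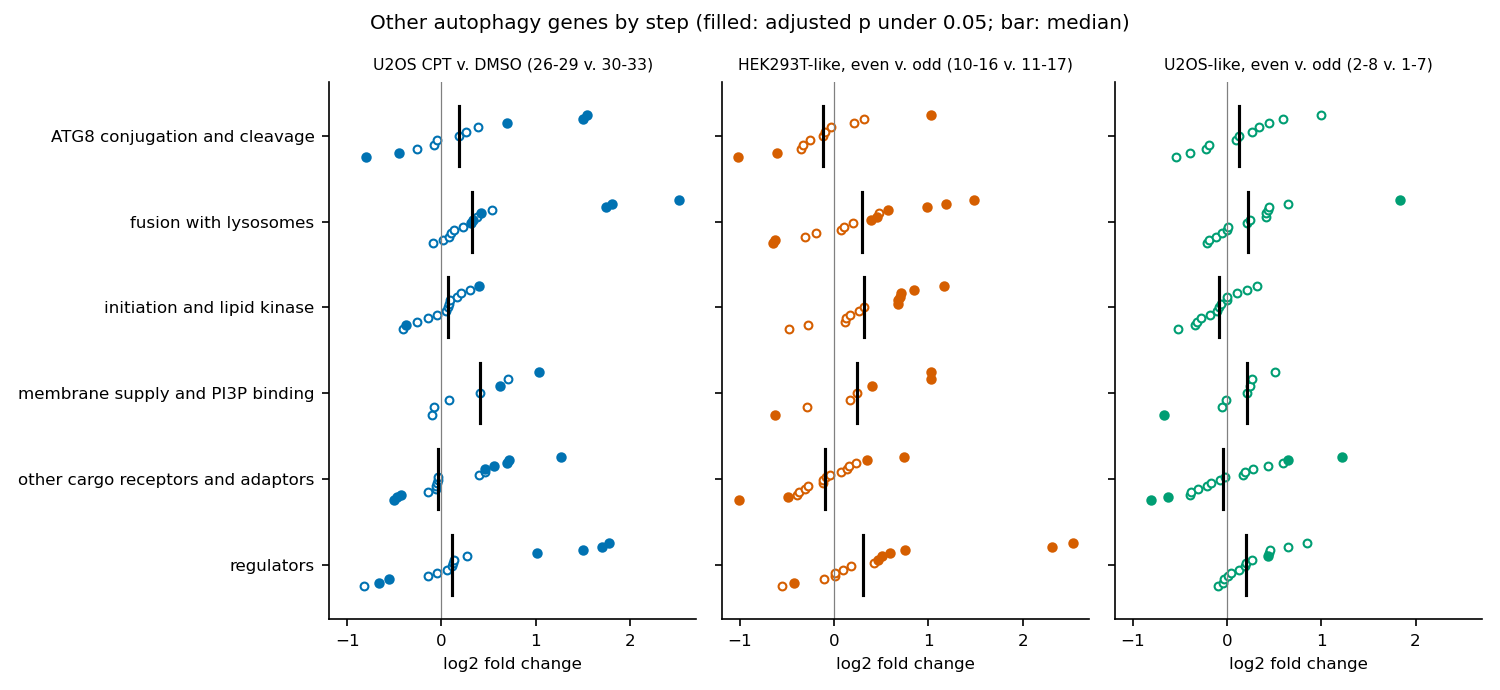
Log2 fold change (horizontal axes) of other autophagy genes by step, in U2OS CPT against DMSO and in even against odd libraries of the HEK293T-like and U2OS-like sets; each point is a gene, filled at an adjusted p under 0.05, and the bar is the list's median. Calls number 29 in U2OS CPT, 32 in the HEK293T-like set and 7 in the U2OS-like set.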

How the data were processed

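RNA was prepared with the QuantSeq 3′ FWD kit with molecular identifiers and processed by the authors with the Lexogen QuantSeq pipeline (2.3.1) on BlueBee; the genome build is not given in the sources used here. The deposited table holds raw counts per Ensembl gene for 32 libraries. Symbols came from GENCODE 29 and matched 56531 of 60107 IDs; 5 summary rows and 92 spike-in rows stayed out of library sizes. Counts were fitted with edgeR 4.0.16 (R 4.3.3), TMM scaling and the quasi-likelihood test, on genes with over 1 count in at least 2 of the libraries fitted, with Benjamini-Hochberg adjustment over all genes tested. A gene was called at an adjusted p under 0.05; the study's further cutoff, an absolute log2 fold change over 1, was a second rule. SE was the log2 fold change over the root of F. Libraries had 1232674 to 6362433 counts on genes. The 95% intervals were built from that SE and so include the spread between libraries, whereas floors (3 counts) cover counting error only. Alternatives were scaling by RLE or by counts on genes alone, DESeq2 1.42.0, the likelihood ratio test of edgeR, other filters, 1 fit of all libraries, grouping by label and leaving out each library. Members and lists were chosen with earlier results of these data known. Beside the members, up to 3 genes per list, direction and comparison were named, with the largest changes among called genes whose groups did not overlap at a mean of at least 5 CPM, plus TFEB, TP53INP1, DRAM1, ULK1 and ATG7 in U2OS CPT. The study describes 4 independent repeats per experiment, with protein fractions and RNA taken in parallel from the same cells. No label says which libraries share a repeat, so no fit was blocked by repeat and p-values measure the spread between libraries.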

Additional observations from a re-analysis of the deposited data

Results flagged for a closer look

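In 7 of the 72 groups of 4 libraries tested for single members, 1 library stood apart from the other 3 by Dixon's criterion; chance gives about 1 in 20 groups. All lie in libraries 1 to 17. Library 16 was high for OPTN (212 CPM, others 135 to 141 CPM) and GABARAPL1 (56.0 CPM, others 34.3 to 35.5 CPM), and library 14 was low for MAP1LC3B (131 CPM, others 159 to 162 CPM). Library 17 was low for GABARAPL1 (14.4 CPM, others 23.1 to 24.2 CPM). Library 7 was high for SQSTM1 (183 CPM, others 113 to 125 CPM) and OPTN (58.6 CPM, others 38.5 to 41.1 CPM), and library 8 for CALCOCO2 (97.4 CPM, others 58.4 to 63.0 CPM).

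The U2OS CPT change differed from the even minus odd change of libraries 10 to 17 in the test of that difference for CALCOCO2 (0.70), MAP1LC3B (−0.66), SQSTM1 (−0.66) and NBR1 (−0.52). It differed from that of libraries 1 to 8 for GABARAPL1 (1.12), GABARAPL2 (0.74), MAP1LC3B (0.72), TAX1BP1 (0.59) and SQSTM1 (0.56).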

How the results depend on the processing

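No paired analysis was run, because the groups compared share no replicate numbers. Pairing by library order, which no label gives, was not tried. No called member changed sign: of 1116 refits of single members, 1054 kept their side of the threshold, 45 lost a call and 17 gained one, and in 47 a member called in neither fit changed sign. OPTN kept its call in U2OS CPT and in both sets of libraries 1 to 17 under every alternative run. Scaled on genes alone, 3 members in place of 7 were called in U2OS CPT and 2 in place of 5 in its difference from libraries 1 to 8. Grouped by label, libraries 10 to 16 gave 3 members in place of 7 and 7 pathway genes in place of 32. With an absolute log2 fold change over 1, the members called were 1 in U2OS CPT, 3 in libraries 10 to 17, 2 between the cell lines, 0 in the difference from libraries 10 to 17 and 1 in that from libraries 1 to 8; the pathway genes were 11, 10, 24, 9 and 10 in that order, and 2 in libraries 1 to 8. Over all genes that cutoff was passed by 13.5%, 14%, 39.9%, 11.9% and 10.8% in that order, and by 5.24% in libraries 1 to 8. The cause was not tested. Leaving out single libraries gave 1 to 2 members and 5 to 11 pathway genes in libraries 1 to 8 (2 and 11 without library 8), and 2 to 6 members in the difference of U2OS CPT from libraries 1 to 8 (2 without library 26).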
